A study of Mus musculus with 7 samples.

Results

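The reads described here are those that the deposited tables assign to mouse piRNA entries, which are rows whose name starts with mmu_piR. The tables hold 39972 such rows among 66568 named rows. Members are the 45 rows with 100 or more reads summed over the 7 libraries, so read totals chose them, and their abundance is a description and not a finding. Knockout libraries supply 71.3% of the piRNA-annotated reads in that sum, so the choice leans towards rows seen in them. Small RNA was sequenced from adult C57BL/6J mice, with lateral ventricle and choroid plexus as 1 tissue sample, in 4 libraries labelled TAp73 knockout and 3 labelled wild type. The p73 gene encodes a transcription factor of the p53 family, TAp73 is its isoform class with the transactivation domain, and the study's title places it in brain multiciliogenesis. Each value averages over all cell types of this tissue, and fewer cells of a type cannot be told apart from less RNA per cell. How the knockout allele was made, and whether each library is a separate animal, is not given in the sources used here, and p-values then measure only how much the libraries vary, which may be technical.

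Piwi-interacting RNAs (piRNAs) are small RNAs, longer than miRNAs, that are loaded onto PIWI proteins. They are known chiefly from germ cells, where they guide the silencing of transposons. They arise from long single-stranded precursors without Dicer, and their 3′ ends carry a methyl group. In somatic tissue piRNA-annotated reads are usually scarce, and piRNA catalogues are known to include fragments of other abundant RNAs such as tRNA and snoRNA. The tables give a name and a count for each row. Read length, first base and 3′ end, the features by which a piRNA is usually recognised, cannot be read from them. The label of this group of rows is therefore used here as an annotation and not as a statement that the reads are piRNAs.

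The sources used here pair no sequence with the 45 members. The tables join 14 other piRNA numbers under 1 name each with a mature miRNA. A sequence can be shown for some of these miRNAs, but not for the piRNA entries themselves. The pairs are given because they show how the piRNA annotation meets the miRNA annotation. All 14 joined rows held 0 reads in all 7 libraries, while the rows of the miRNAs alone could be well filled. The RefSeq mature sequences (build GRCm38.p6) of 3 of these miRNAs follow, with the seed, bases 2 to 8, in capitals.
miR-744-5p, joined with mmu_piR_017405: uGCGGGGCuagggcuaacagca
miR-532-3p, joined with mmu_piR_028975: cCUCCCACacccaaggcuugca
miR-871-3p, joined with mmu_piR_015997: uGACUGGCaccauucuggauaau

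miR-744-5p lies on chromosome 11, 65734799 to 65734820 on the minus strand, and its own row held 26685 reads. miR-532-3p (chromosome X, 7248419 to 7248440, minus strand) held 365 reads. miR-871-3p (chromosome X, 66810438 to 66810460, minus strand), from a testis-enriched X-linked cluster, held 50 reads. The 3 sequences are 22, 22 and 23 bases long and their seeds differ. None of these 14 numbers is a member.

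The libraries ranged from 969106 assigned reads in knockout replicate 3 to 9343921 in knockout replicate 1. Mouse miRNAs held 98.9% of all assigned reads, snoRNAs and scaRNAs 0.112% and rRNA genes 0.0149%. No row name contains the letters tRNA, but tRNA rows under other names were not looked for. Of the markers fixed for the male germ line, 6 of 12 miRNAs had 0 reads, and the 12 summed to between 1.18 and 7.22 reads per 1000000 assigned reads (RPM) in knockouts and between 0.733 and 7.04 in wild types. Of 6 miRNAs of the early embryo and germ cells, 5 had 0 reads and miR-294-3p had 1 read in total. Neuronal and choroid plexus miRNAs had reads in every library: the 4 neuronal miRNAs summed to 29949 to 31853 RPM in knockouts and 16577 to 28745 in wild types. Only miR-128-3p among these 4 had no overlap of the groups, at 17596 to 19214 RPM in knockouts and 8686 to 16463 in wild types. miR-124-3p overlapped, at 5878 to 9882 RPM in knockouts and 5238 to 8669 in wild types. So did miR-132-3p, at 3858 to 4846 and 2640 to 4115, and the sparse miR-129-5p. The 4 miRNAs of multiciliated cells summed to 373.5 to 738.6 in knockouts and 1238 to 3534 in wild types, a sum made up mostly of miR-34c-5p. Its members went in opposite directions, each without overlap of the groups. For comparison, the groups did not overlap in 70 of the 706 rows tested between genotypes (9.92%), there in TMM-scaled counts and not RPM. miR-34c-5p was at 300.3 to 549.4 RPM in knockouts and 1160 to 3387 in wild types, and miR-34b-5p at 17.9 to 20.9 and 47.3 to 146.3. miR-449a-5p was at 44.4 to 187.1 RPM in knockouts and 18.3 to 27.7 in wild types, and miR-449c-5p at 9.29 to 21.7 and 0.733 to 3.13.

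piRNA-annotated rows took a small and similar share of every library. The share was 0.904%, 0.765%, 1.18% and 0.877% of assigned reads in knockout replicates 1 to 4. In wild type replicates 1 to 3 it was 0.788%, 0.935% and 0.919%. Knockout replicate 3, the shallowest library, had the highest share, and the groups overlapped. Knockouts averaged 0.932% ± 0.178 (SD, n = 4) against a wild type average of 0.880% ± 0.0806 (SD, n = 3), a difference smaller than the SD of either group (two-sided exact permutation test on log2 shares, p = 0.83, adjusted p = 0.83 over 3 tests). The smallest p that 35 splits of 4 against 3 libraries allow is 0.029. Without knockout replicate 3 the difference of the shares, knockout minus wild type, turned from 0.0519 to -0.0319 percentage points.

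These reads came from very few rows. Of the 39972 rows, 38182 had 0 reads, 1134 had 1 read, 530 had 2 to 9 and 81 had 10 to 99. The 45 members held 98.0% of the 266140 piRNA-annotated reads. The 4 most abundant members held 90.8%, and the other 41 held 7.22%. A row at 0 is only below what the depth can show: a count of 0 allows up to 3 reads, which is 35.5 CPM, or counts per 1000000, of piRNA-annotated reads in knockout replicate 1 and 261.5 CPM in knockout replicate 3, counting error only. In each library 10 to 19 rows made up 95% of the piRNA-annotated reads.

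**Figure D1:**
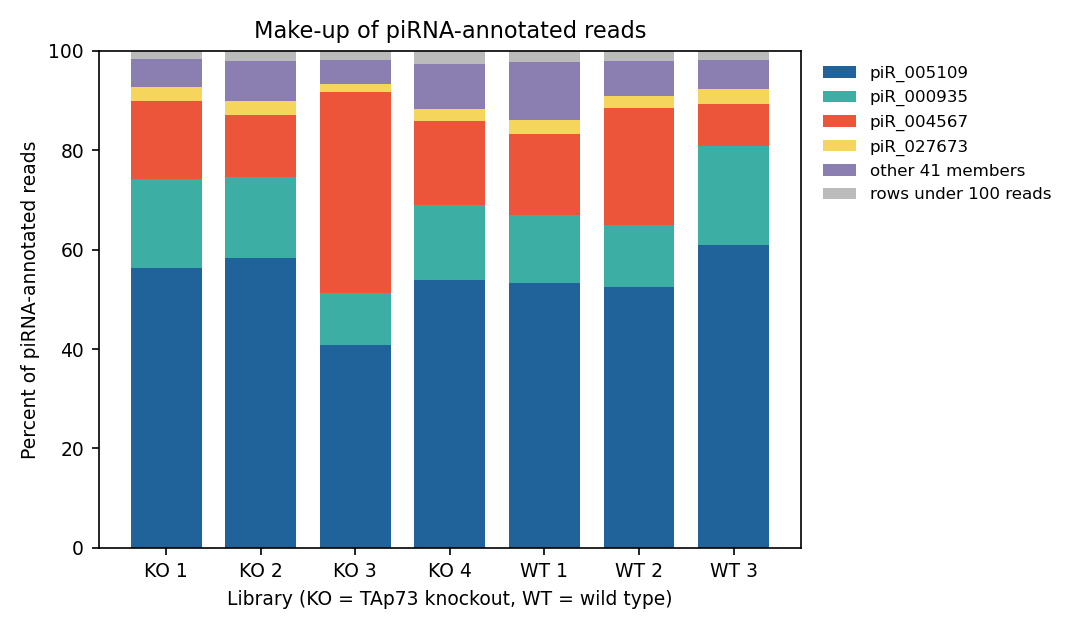
Percent of piRNA-annotated reads (vertical axis) taken in each of the 7 libraries (horizontal axis) by the 4 most abundant rows, the other 41 members and all rows under 100 reads. mmu_piR_005109 is the largest part of every bar, and mmu_piR_004567 nearly equals it in knockout replicate 3.

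The stacked plot of the make-up of the piRNA-annotated reads shows mmu_piR_005109 as the largest part in both genotypes. The 10 most abundant rows of each library held 94.8%, 92.5%, 95.1% and 92.7% of its piRNA-annotated reads in knockouts 1 to 4, and 92.5%, 93.4% and 94.5% in wild types 1 to 3. The means were 93.8% ± 1.37 (SD, n = 4) and 93.4% ± 0.978 (SD, n = 3; exact permutation test, two-sided, p = 0.74, adjusted p = 0.83). Only 5 rows were among the 10 most abundant in all 7 libraries, and 20 rows were so in at least 1. Rows with any read numbered 189 to 654 in knockouts and 308 to 413 in wild types, with the fewest in knockout replicate 3, the shallowest library. At an equal 11471 piRNA-annotated reads per library, knockouts had an expected 206.8 ± 25.7 rows (SD, n = 4) and wild types an expected 211.7 ± 7.81 (SD, n = 3; two-sided exact permutation test, p = 0.77, adjusted p = 0.83).

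mmu_piR_005109 was the most abundant row in all 7 libraries. It stood at 563010, 583612, 407375 and 539472 CPM of piRNA-annotated reads in knockouts 1 to 4 and at 533166, 524397 and 609591 CPM in wild types 1 to 3. The low value is that of knockout replicate 3. In RPM the row was steadier, at 5087, 4465, 4822 and 4729 in knockouts and 4200, 4901 and 5600 in wild types, with a coefficient of variation of 9.28% over the 7 libraries. Knockout replicate 3 was not low on this scale, and the groups overlapped. At this level mmu_piR_005109 alone had more reads, 148601 in total, than all snoRNA and scaRNA rows together (34275). The most abundant rows of the classes other than miRNAs were lower: Snord64, a box C/D snoRNA, had 106.4 to 211.5 RPM, the 5.8S rRNA gene n-R5-8s1 had 65.6 to 112.6 and the predicted gene Gm23246 had 233.1 to 334.2. Its log2 fold change, knockout minus wild type, was 0.05 ± 0.12 (SE), with a 95% interval of -0.21 to 0.31 (edgeR quasi-likelihood test over all rows, adjusted p = 0.87).

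Among the other abundant rows, mmu_piR_000935 and mmu_piR_027673 ranged 1.69-fold and 1.41-fold in RPM, and 1.90-fold and 1.82-fold on the scale of piRNA-annotated reads. mmu_piR_000935 had 1620, 1246, 1235 and 1313 RPM in knockouts and 1077, 1170 and 1819 in wild types. Its highest and lowest values are both wild type libraries. mmu_piR_027673 had 255.7, 217.0, 194.0 and 225.2 in knockouts and 226.2, 224.7 and 273.8 in wild types. For every 100 reads of mmu_piR_005109 a library held 23.9 to 32.5 reads of mmu_piR_000935 and 4.02 to 5.39 of mmu_piR_027673. In edgeR the log2 fold change was 0.09 ± 0.18 (SE) for mmu_piR_000935 (95% interval -0.30 to 0.49, adjusted p = 0.85) and -0.02 ± 0.15 for mmu_piR_027673 (-0.35 to 0.31, adjusted p = 0.96).

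mmu_piR_004567 was the abundant row that differed most between libraries. It had 1414, 945, 4795 and 1477 RPM in knockouts 1 to 4 and 1282, 2199 and 787 in wild types 1 to 3. Knockout replicate 3 stood far above the other 6 libraries, followed by wild type replicate 2, and wild type replicate 3 was lowest, a 6.10-fold range. As CPM of piRNA-annotated reads it was 405109 in knockout replicate 3, next to 407375 for mmu_piR_005109, and 85628 to 235269 in the other libraries. For every 100 reads of mmu_piR_005109 a library held 14.0 to 99.4 reads of this row. It was the second most abundant row in 4 libraries, and mmu_piR_000935 was so in the other 3. Its log2 fold change in edgeR was 0.67 ± 0.69 (SE), with a 95% interval of -1.04 to 2.37 (adjusted p = 0.77). Without knockout replicate 3 it was -0.06 (edgeR adjusted p = 0.97).

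**Figure D2:**
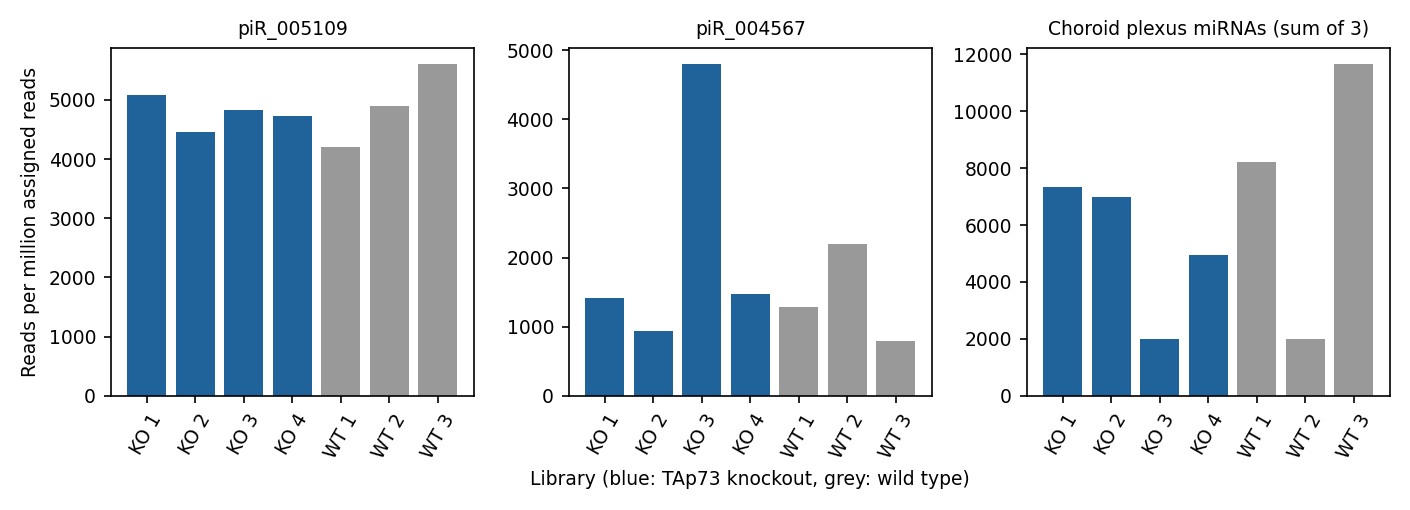
RPM (vertical axes) in each library for mmu_piR_005109, mmu_piR_004567 and the sum of the 3 choroid plexus miRNAs, with TAp73 knockouts in blue and wild types in grey. mmu_piR_004567 is highest in knockout replicate 3 and wild type replicate 2, the 2 libraries with the lowest choroid plexus sum, and lowest in wild type replicate 3, which has the highest.

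The plot of these levels also shows the 3 miRNAs listed as choroid plexus markers. Their sum, nearly all of it miR-204-5p, was 7347, 6986, 1986 and 4942 RPM in knockouts 1 to 4 and 8230, 1991 and 11643 in wild types 1 to 3. The lowest values belong to knockout replicate 3 and wild type replicate 2, where mmu_piR_004567 was highest. miR-204-3p and miR-211-5p had only 108 and 119 reads in total. miR-211-5p did not follow the sum: it was highest in knockout replicate 3, at 7.22 RPM from 7 reads, and next highest in wild type replicate 3, at 6.77 RPM from 25 reads. Knockout replicate 3 was also the shallowest library, and it was the highest or lowest library for the other marker sums too. The neuronal sum was highest there, at 31853 RPM, and lowest in wild type replicate 3, at 16577 RPM, where mmu_piR_004567 was lowest. In wild type replicate 2 the neuronal sum was 28745 RPM, below all knockouts. The male germ line sum was highest in knockout replicate 3, at 7.22 RPM, all of it from 7 reads of miR-871-3p. Nearly level with it was wild type replicate 3, at 7.04 RPM, where mmu_piR_004567 was lowest. The sums for multiciliated cells (373.5 RPM) and oligodendrocytes (350.8 RPM) were lowest there. The erythrocyte sum was highest in knockout replicate 3, at 5122 RPM, against 3712 to 4267 in the other libraries. So was the sum for leukocytes and microglia, at 770.8 RPM, against 524.4 to 633.7. The part of cell type content or depth in the level of mmu_piR_004567 was not tested.

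Below these 4 rows the members fell steeply. The other 41 had mean levels between 364.6 and 5325 CPM of piRNA-annotated reads. All 45 members had reads in all 7 libraries, with 1 read as the fewest (mmu_piR_003861 in knockout replicate 3), and 25 had 10 or more in each library. The rows just inside the limit of 100 reads were mmu_piR_015769 with 107 and mmu_piR_005810 with 113 in total. Just outside were mmu_piR_017772 with 93 and mmu_piR_000716 with 92. Without each library in turn, 38 to 45 of the members still had 100 or more reads.

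On the scale of piRNA-annotated reads, some of the middle members were very even. mmu_piR_000620 stood at 4087, 4152, 3836 and 3981 CPM of piRNA-annotated reads in knockouts and at 3538, 3919 and 4333 in wild types. Its SD of log2 CPM over the 7 libraries, 0.09, was below the 0.14 that counting error alone gives. In RPM the row ran from 27.9 to 45.4, a 1.63-fold range. mmu_piR_000870 was at 1308 to 1748 CPM in knockouts and 1326 to 1625 in wild types, with an SD of 0.15 and a counting error of 0.24. mmu_piR_005109, the other of the 3 evenest members, had an SD of 0.19, against a counting error of 0.013. Over the 45 members the median SD was 0.60 and the median counting error 0.27, and in 23 members the SD was more than 2 times the counting error. On this scale 24 members were lowest in knockout replicate 3, where mmu_piR_004567 took 405109 CPM. In RPM, with 0.5 added to each count, the median SD of the 45 was 0.49.

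The largest spread came from rows that were high in a single library. On the scale of piRNA-annotated reads, the highest library exceeded 3 times the median of the 7 in 6 members. These highs fell in knockout replicate 4 for 4 rows and in wild type replicate 1 for 2. In RPM 7 of the 45 members did so, the added row being mmu_piR_004567 in knockout replicate 3. mmu_piR_000802 had 27184 CPM of piRNA-annotated reads in wild type replicate 1, from 584 reads. In knockouts 1 to 4 it had 379.0, 369.8, 3661 and 261.5 CPM, and in wild types 2 and 3 it had 573.5 and 294.8. mmu_piR_007158 had 19597 CPM in wild type replicate 1, from 421 reads, and 353.0 to 1220 CPM in the other 6. Both rows were next highest in knockout replicate 3, from 42 and 14 reads. Together they made up 4.68% of the piRNA-annotated reads of wild type replicate 1 and at most 0.488% of those of any other library.

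In knockout replicate 4 the high rows were mmu_piR_032901, mmu_piR_031749, mmu_piR_002635 and mmu_piR_022097, the last of them picked out here after its values were seen. mmu_piR_032901 had 17085 CPM there, from 588 reads, and 2528 to 4282 CPM in the other 6 libraries. mmu_piR_022097 had 6014 CPM, from 207 reads, and 261.5 to 884.4 elsewhere. mmu_piR_031749 had 5927 CPM, against 871.8 to 1782, and mmu_piR_002635 had 5695 CPM, against 871.8 to 1651. Together the 4 rows took 3.47% of the piRNA-annotated reads of knockout replicate 4 and 0.453% to 0.774% of those of the others. The row just outside the limit, mmu_piR_017772, had 75 of its 93 reads in the same library. A low case was mmu_piR_003861, with an SD of 1.5 on that log2 scale, where counting error alone gives 0.61. It had 87.2 CPM from 1 read in knockout replicate 3 and 290.6 CPM from 10 reads in knockout replicate 4. The other 5 libraries had 812.4 to 1680 CPM.

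**Figure D3:**
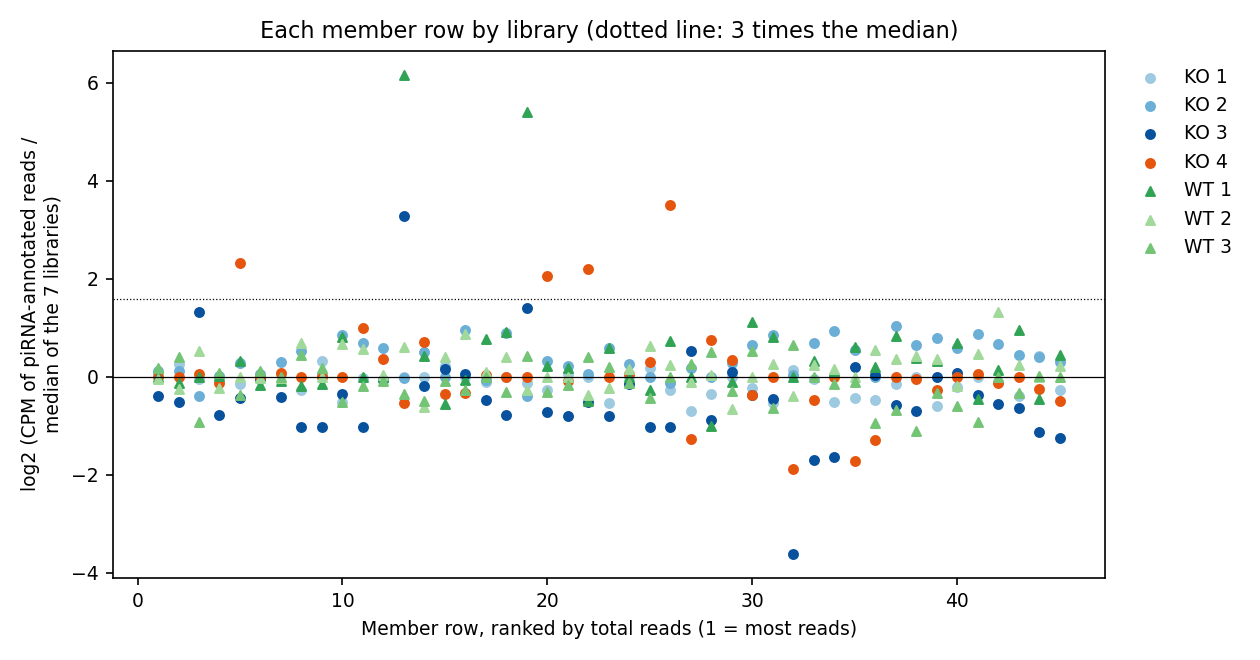
Each of the 45 members (horizontal axis, ranked by total reads) with its level in each library as log2 of the ratio to the median of the 7 libraries (vertical axis, CPM of piRNA-annotated reads). The dotted line marks 3 times the median. Wild type replicate 1 (dark green triangles) lies above it for 2 rows, in 1 of them with knockout replicate 3 (dark blue). Knockout replicate 4 (orange) lies above it for 4 rows.

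The plot of members by library shows these highs beside the other rows. In 35 of the 45 members no library exceeded 2 times the median. Rows of other classes with 100 to 1382 reads in total give the background, measured in RPM. On that scale 6 of the 41 members in this range (14.6%) had a library above 3 times the median, against 13 of 255 mouse miRNAs (5.10%), 2 of 38 snoRNAs and scaRNAs (5.26%) and 0 of 38 other small RNA genes. Knockout replicate 4 was the high library in 4 of the members and in 0 rows of those other classes. Wild type replicate 1 was so in 2 members, 4 miRNAs and 2 snoRNAs or scaRNAs. The other 9 miRNAs were high in wild type replicate 3, where 0 members were. The median SD on the log2 scale was 0.49 for the members, 0.38 for the miRNAs, 0.38 for the snoRNAs and scaRNAs and 0.40 for the other genes. These are descriptions, since members were chosen by their totals and no test was made of the difference between classes. In knockout replicate 4 the choroid plexus sum of 4942 and the erythrocyte sum of 3858 RPM lay within the range of the other libraries. So did the sum for leukocytes and microglia, at 578.5 RPM. Within that list miR-223-3p was highest in this library, at 8.41 RPM from 33 reads, against 2.68 to 5.53 in the others. The other miRNAs of the list were not highest there. The part of cell type content or of the library's preparation in these highs was not tested.

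No member was called between genotypes. The edgeR quasi-likelihood test over all named rows tested 706 rows, all 45 members among them, and called 5 rows (0.708%) at an adjusted p under 0.05, 2 higher in knockouts (0.283%) and 3 lower (0.425%). Of the members it called 0, with 0 also in DESeq2 and in limma-voom. At an unadjusted p under 0.05 there were 2 members (4.44%), against 70 of all 706 rows (9.92%), with 1 in DESeq2 and 2 in limma-voom. The knockout and wild type libraries did not overlap for 2 members (4.44%), both higher in knockouts, and for 70 of all rows (9.92%). The members' median log2 fold change was 0.08, with 27 of 45 above 0, and that of all rows tested was -0.02. With library totals in place of TMM scaling the members' median was -0.01 and 21 of 45 were above 0, with -0.11 over all rows.

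**Figure D4:**
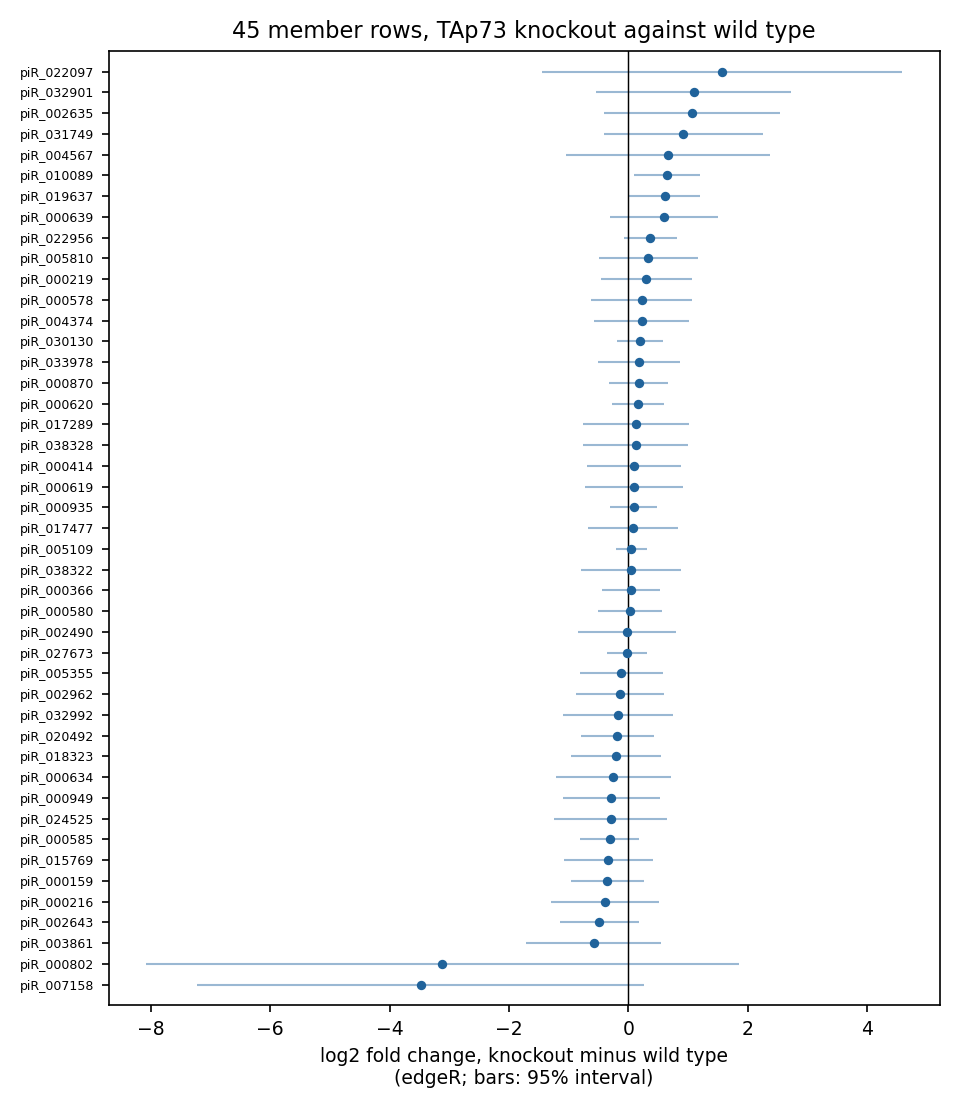
log2 fold change, TAp73 knockout minus wild type, of the 45 members (points) with the 95% interval from edgeR (bars), ordered by fold change. The widest intervals, those of mmu_piR_000802 and mmu_piR_007158, run from -8.08 to 1.85 and from -7.23 to 0.27.

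The smallest p-values among members belonged to mmu_piR_010089 and mmu_piR_019637. mmu_piR_010089 was at 9.93, 9.98, 13.6 and 12.04 CPM of assigned reads with TMM scaling in knockouts 1 to 4 and at 7.73, 6.07 and 7.28 in wild types 1 to 3. All 4 knockouts lay above all 3 wild types, from 13 to 89 reads per knockout library and 14 to 29 per wild type library. The row was 1.56-fold higher in knockouts (95% interval 1.07 to 2.29), a log2 fold change of 0.64 ± 0.25 (SE), and did not pass over all rows (edgeR adjusted p = 0.45). mmu_piR_019637 averaged 26.1 ± 5.17 such CPM over knockouts (SD, n = 4) and 17.2 ± 6.17 over wild types (SD, n = 3), with overlapping groups and a log2 fold change of 0.61 ± 0.27 (edgeR adjusted p = 0.49). The other non-overlapping row, mmu_piR_030130, had 34.5 to 37.3 CPM in knockouts and 28.4 to 34.2 CPM in wild types, with a log2 fold change of 0.19 ± 0.17 (edgeR adjusted p = 0.73). On the scale of piRNA-annotated reads its groups overlapped.

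Larger fitted changes rested on the single-library highs. mmu_piR_007158 was at -3.48 ± 1.52 (SE) and mmu_piR_000802 at -3.11 ± 1.98 on the log2 scale (edgeR adjusted p = 0.52 and 0.65). Without wild type replicate 1 they were at 0.06 and 1.19 (edgeR adjusted p = 0.98 and 0.90). For mmu_piR_000802 a single library, knockout replicate 3, was then high, at 3661 CPM of piRNA-annotated reads from 42 reads. The remaining libraries had 261.5 to 573.5 CPM. mmu_piR_022097, mmu_piR_032901, mmu_piR_002635 and mmu_piR_031749 were at 1.57, 1.09, 1.07 and 0.93 (edgeR adjusted p = 0.70, 0.64, 0.63 and 0.64). Without knockout replicate 4 they were at -0.58, 0.05, 0.06 and -0.01. The remaining named members in order of p were mmu_piR_022956 at 0.37 ± 0.20, mmu_piR_002643 at -0.49 ± 0.30, mmu_piR_000585 at -0.31 ± 0.22 and mmu_piR_000159 at -0.35 ± 0.28, none of which passed (edgeR adjusted p from 0.57 to 0.69). Lower in that order were mmu_piR_003861 at -0.58 ± 0.51, mmu_piR_015769 at -0.33 ± 0.34, mmu_piR_005810 at 0.34 ± 0.37, mmu_piR_000620 at 0.17 ± 0.20, mmu_piR_000870 at 0.17 ± 0.23 and mmu_piR_018323 at -0.20 ± 0.34 (edgeR adjusted p from 0.73 to 0.84). mmu_piR_018323 ranged from 1943 to 5042 CPM of piRNA-annotated reads and mmu_piR_000159 from 1656 to 5448, with overlapping groups for both.

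The precision differed widely between members. In 21 of the 45 the 95% interval lay within a 2-fold change in either direction. In the other 24 the interval reached a 2-fold change or more, so that such a change was not excluded at this depth and spread. The 22 members not named here had 114 to 909 reads in total and 232.4 to 4620 CPM of piRNA-annotated reads in any library. Their log2 fold changes lay between -0.39 and 0.60, with edgeR adjusted p of 0.65 or more, and their SD of log2 CPM lay between 0.33 and 0.79.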

How the data were processed

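Each library has 1 deposited table of whole-number read counts for the named small RNAs, not normalized. Per the labels' protocols, total RNA was extracted with phenol and chloroform and sequenced after TruSeq small RNA preparation. Without saying for what, the submitters' processing notes list mm10, bcl2fastq 2.17.1.14 and DESeq2. Which aligner, counting tool and piRNA annotation were used, and how reads matching several rows were handled, is not given in the sources used here. Counts in the 5 closing lines for unassigned reads are 0, and those lines were left out.

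Groups came from the labelled genotype. All named rows were fitted with edgeR 4.0.16 in R 4.3.3 (TMM, filterByExpr with minimum count 10 and minimum total 15, robust quasi-likelihood test, Benjamini-Hochberg over all rows, called under 0.05). Values of 1 per library were compared with exact permutation tests, and members were also given as CPM of piRNA-annotated reads. Scripts were tested on simulated data. Libraries were compared pair by pair over piRNA-annotated rows: none were identical, and chi-square per degree of freedom was 14.0 to 177.2. Alternatives were DESeq2 1.42.0, limma-voom (limma 3.58.1), other scalings, filters, row sets and limits, and leaving libraries out.

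Named are the 10 members highest in mean CPM, called members or, in a direction with fewer than 5 calls, the 5 with the smallest p, the 3 with the largest and the 3 with the smallest SD, and rows beside the limit. The members and lists were chosen with earlier results of these data known.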

Additional observations from a re-analysis of the deposited data

Results flagged for a closer look

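For the knockouts, 49 values (the 45 members and 4 summary values) were checked for a library set apart from the other 3, which chance gives for about 1 in 20, and 2 such values were found. In knockout replicate 3, mmu_piR_000802 reached 3661 CPM of piRNA-annotated reads, counted from 42 reads, while the other knockouts lay at 261.5 to 379.0 CPM. The gap to the nearest library filled 0.859 of the range of log2 values. In knockout replicate 2, mmu_piR_002643 reached 1412 CPM, counted from 84 reads, while the other knockouts lay at 697.3 to 769.9 CPM, with a gap filling 0.860 of the range. The 3 wild types were not checked, so the high rows of wild type replicate 1 were not part of it.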

How the results depend on the processing

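The count of members called was 0 in edgeR and in each of the 20 alternatives tried, including each library left out in turn (0 to 0), and the smallest adjusted p of a member over these was 0.26. The other summary differences, none past the threshold in any alternative, turned sign in some. Leaving out each library in turn, the share of assigned reads (knockout minus wild type) differed by -0.0319 to 0.108 percentage points, the share in the 10 most abundant rows by -0.130 to 0.846, and the rows detected at equal depth by -14.5 to 3.53. The share without the 4 most abundant rows differed by -0.0071 percentage points, the share of the most abundant row alone by -3.24, and rows detected without thinning by 144.8. The cause was not tested. Unthinned row numbers come from libraries of unequal depth but did not rank strictly by it. Knockout replicate 2 had 654 rows from 59495 piRNA-annotated reads, and knockout replicate 1 had 652 from 84423.

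Of 23 named members, 11 changed sign in at least 1 alternative and 0 were called in any. The log2 fold change with library totals alone was -0.037 for mmu_piR_005109 and -0.0022 for mmu_piR_000935, with piRNA-annotated rows only -0.038 and -0.0032, and mmu_piR_027673 was 0.036 with no filter. With knockout replicate 4 and wild type replicate 1 both left out, chosen after seeing the data, mmu_piR_005109 was at -0.053, mmu_piR_000935 at -0.047, mmu_piR_000802 at 1.61, mmu_piR_007158 at 0.12, mmu_piR_002635 at -0.14 and mmu_piR_022097 at -0.41. With knockout replicate 3 and wild type replicate 2 both left out, also chosen afterwards, mmu_piR_027673 was at 0.00079, mmu_piR_000159 at 0.0036 and mmu_piR_018323 at 0.051. Leaving out each library in turn gave -0.054 to 0.12 for mmu_piR_005109, -0.057 to 0.32 for mmu_piR_000935, -0.064 to 1.11 for mmu_piR_004567, -0.12 to 0.041 for mmu_piR_027673, -4.58 to 1.19 for mmu_piR_000802, -4.06 to 0.060 for mmu_piR_007158, -0.012 to 1.16 for mmu_piR_031749 and -0.58 to 1.94 for mmu_piR_022097.

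The filter of 10 CPM in 3 libraries tested only 27 members. DESeq2 gave 3 members no adjusted p. No paired analysis was possible because the title numbers are not shared between the genotypes. Depth limits the weakest members, 20 of which had under 10 reads in at least 1 library. The labels name no molecular identifiers, and detection limits cover counting error only.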
